A study of Mus musculus with 6 samples.

Results

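The acinar programme of the mouse pancreas was followed here through 40 named genes, which encode digestive enzymes, proteins of the zymogen granule and of the secretory pathway, a protease inhibitor, a membrane dipeptidase and the transcription factors of the lineage. The genes were chosen by name, and a gene was kept if its symbol stood in at least 1 of the authors' 2 tables comparing tumours with normal pancreas. This kept 38 of the 40, out of 27179 genes with a count. Amy2a5 and Prss1 were left out, and their reads were 0 in all 6 libraries and between 0 and 3, respectively.

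RNA came from 3 groups of 2 samples each. Normal whole pancreas of C57BL/6 mice was the control. H7 tumours were grown from PANC02-H7 cells and UNKC tumours from UN-KC-6141 cells, both mouse pancreatic carcinoma lines. Each line was implanted surgically in the pancreas of mice of the same strain, which received no treatment, and the tumours were collected after 20 days. The host therefore still had its own pancreas, and the labels do not say how a tumour was separated from it. They also do not give the age or sex of the mice, or say that the 2 samples of a group came from different mice, so p-values measure the spread between these samples only. The study's design text asks how expression in normal pancreas differs from that in the 2 kinds of tumour.

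Acinar cells make up most of the exocrine pancreas and synthesise digestive enzymes, which are translated into the endoplasmic reticulum, stored in zymogen granules and released into the ducts when secretagogues such as cholecystokinin bind their receptors. Proteases are stored as inactive zymogens and are activated in the gut by trypsin. Their genes are driven by a trimeric complex in which PTF1A, a basic helix-loop-helix factor, and a partner E protein bind an E-box and RBPJL binds a nearby TTCCCA box. NR5A2 and BHLHA15 (MIST1) maintain the same programme, and its loss is a known feature of pancreatic carcinoma and of acinar cells that change into duct-like cells.

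The normal libraries were much shallower than those of the tumours for everything other than ribosomal RNA. Reads counted in genes were 12077320 and 8204225 in normal pancreas, 33332516 and 36307030 in H7 tumours and 40507546 and 38728423 in UNKC tumours. Ribosomal RNA held 86.4% and 85.0% of the reads in normal pancreas, against 20.1% to 27.8% in the tumours. A level is given below in CPM, the read count normalised to the effective library size that TMM (trimmed mean of M-values) scaling sets, for replicates 1 and 2 of a group in that order. A level per length is CPM per kilobase of the authors' gene length. A fall or rise is a log2 fold change with an adjusted p under 0.05 in edgeR's quasi-likelihood test, corrected over 16306 tested genes by the Benjamini-Hochberg method, and every adjusted p below is from that test unless another is named.

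The acinar genes fell almost as a block in both tumours. In normal pancreas the 38 genes together held 45911 and 42993 reads, in H7 tumours 3771 and 5420, and in UNKC tumours 2603 and 1360. Summed over the genes, the level was 20876 ± 522 CPM (SD, n = 2) in normal pancreas, 62.1 ± 10.6 in H7 tumours and 22.4 ± 9.12 in UNKC tumours, which was 336-fold and 933-fold lower. As a share of all reads, ribosomal RNA included, the 38 genes were 34.5-fold and 90.99-fold lower. Fewer acinar cells and less RNA per acinar cell cannot be told apart in bulk tissue. Nor can acinar reads of the host pancreas be told from those of the implanted carcinoma cells.

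In H7 tumours 37 of the 38 genes were lower than in normal pancreas, where 21.9% of all tested genes were, and none was higher, where 29.6% of all tested genes were. The median log2 fold change of the 38 was -8.44, beside 0.34 over all tested genes. Values ran from -13.38 to -2.94, or from -12.60 without the 2 genes that had no read in H7 tumours. In UNKC tumours 37 were lower, beside 19.3% of all genes, and none was higher, beside 29.1%. The median there was -10.50, or -9.73 with the 5 genes without a read in UNKC tumours set at their bounds, beside 0.42 over all genes. Dpep1, a membrane dipeptidase, was the exception both times. No gene was higher at an unadjusted p under 0.05 in either comparison (0 and 0), and DESeq2 called 38 lower and 0 higher in H7 tumours, and 37 and 0 in UNKC tumours. For every one of the 38, the 2 tumour libraries of each line lay below the 2 normal libraries. Such separation on the low side was seen for 29.9% of all tested genes in H7 tumours and 28.3% in UNKC tumours, and on the high side for 47.0% and 48.3%. The authors' deposited table called 38 of 38 lower in H7 tumours and 35 of the 36 it listed in UNKC tumours. All 38 passed the filter on low counts, but 10 of them only through normal pancreas, where they were high. Both comparisons share the normal libraries.

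Most calls held under another scaling. When libraries were scaled by their total counts, which ribosomal RNA dominates in normal pancreas, the median of all tested genes moved to 3.61 in H7 and 3.77 in UNKC tumours, and 31 and 35 of the 38 were still lower. The 7 that were not in H7 tumours were Amy1, Ctrb1, Prss2, Prss3, Try5, Ptf1a and Dpep1.

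**Figure D1:**
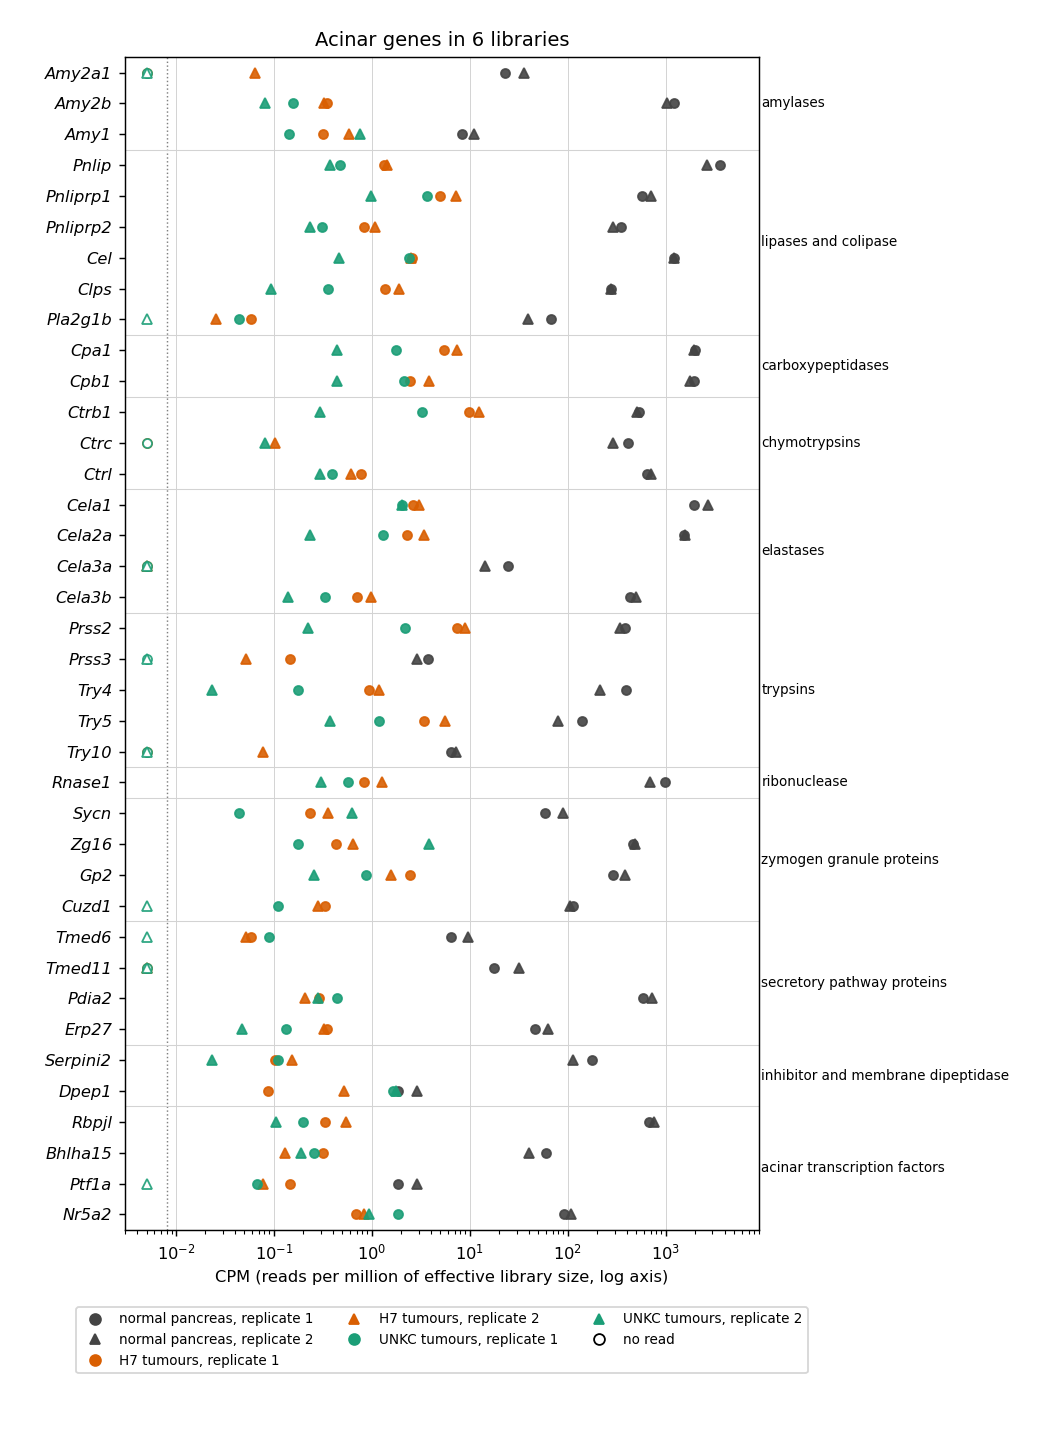
Level of each of the 38 acinar genes in each library, in CPM on a log axis, with circles for replicate 1 and triangles for replicate 2 and open symbols for no read. Normal pancreas (grey) lies to the right of both tumours for every gene, and Dpep1 is the gene with the least distance, with 1.66 and 1.77 CPM in UNKC tumours against 1.85 and 2.86 in normal pancreas.

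The promoters of these genes were read for the letters that the acinar complex is known to bind. The genes were chosen by name as acinar genes, and any part of these letters in the fall was not tested. RefSeq (GRCm38.p6, the build called mm10) gave 33 promoters for 31 of the 38 genes, and the 250 bases before each start were used. Zg16, Clps, Try5, Ctrc, Tmed11, Try10 and Erp27 had no entry. CACCTG, the E-box form bound by the PTF1A complex, was present on either strand in 18 of 33 promoters (54.5%), beside 17.2% of 32851 promoters of all genes. TTCCCA on either strand was present in 16 (48.5%), beside 21.6%. The TATA box TATAAA on the gene's strand was present in 8 (24.2%), beside 7.59%. The looser E-box CANNTG, which includes CACCTG, was in 25 (75.8%), beside 66.2%. The letters TTTCCC, which can overlap TTCCCA, were in 7 (21.2%), beside 21.9%. AAGGTCA, an NR5A2 core, was in 2 (6.06%), beside 4.08%, and CATATG, an E-box form bound by MIST1, was in 0, beside 3.46%. Promoters of duplicated enzyme genes are related in sequence, so these counts are not independent, and a match is a run of letters and not a shown binding site.

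In only 2 member promoters (6.06%), beside 0.746% of all, did CACCTG and TTCCCA lie within 20 bases of each other, with 16 bases between them in both: Cel, which encodes bile salt-stimulated lipase, and Rbpjl, which encodes the acinar subunit of the complex itself. They are shown with 3 others. Cela1 and Pnlip were the genes with the highest level per length in normal pancreas, and Prss2 was the trypsinogen with the most reads in H7 tumours. Each is the 250 bases up to the start, 5′ to 3′ on the gene's strand. Capitals mark CACCTG or its complement CAGGTG, then the second box TTCCCA or its complement TGGGAA, and the TATA box TATAAA.
Cel (chr2:28563404-28563653, minus strand): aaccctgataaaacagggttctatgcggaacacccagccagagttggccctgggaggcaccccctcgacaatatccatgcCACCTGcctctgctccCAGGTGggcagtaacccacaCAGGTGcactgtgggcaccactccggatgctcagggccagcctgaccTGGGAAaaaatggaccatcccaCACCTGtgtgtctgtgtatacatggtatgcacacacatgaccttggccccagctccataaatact
Rbpjl (chr2:164402944-164403193, plus strand): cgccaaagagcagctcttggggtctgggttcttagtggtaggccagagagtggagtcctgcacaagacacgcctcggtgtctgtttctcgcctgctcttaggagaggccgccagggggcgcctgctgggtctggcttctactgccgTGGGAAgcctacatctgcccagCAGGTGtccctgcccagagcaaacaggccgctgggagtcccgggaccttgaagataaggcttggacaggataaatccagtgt
Cela1 (chr15:100687921-100688170, minus strand): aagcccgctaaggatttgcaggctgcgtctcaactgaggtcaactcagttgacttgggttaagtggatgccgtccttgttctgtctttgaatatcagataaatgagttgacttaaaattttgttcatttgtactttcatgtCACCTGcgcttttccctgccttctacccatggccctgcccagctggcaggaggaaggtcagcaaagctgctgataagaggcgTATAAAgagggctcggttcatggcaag
Pnlip (chr19:58670115-58670364, plus strand): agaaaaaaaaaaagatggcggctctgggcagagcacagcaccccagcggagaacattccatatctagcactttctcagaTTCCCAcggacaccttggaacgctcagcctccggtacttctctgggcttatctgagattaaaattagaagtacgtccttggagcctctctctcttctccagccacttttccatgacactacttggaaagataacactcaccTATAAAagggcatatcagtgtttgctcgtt
Prss2 (chr6:41521526-41521775, plus strand): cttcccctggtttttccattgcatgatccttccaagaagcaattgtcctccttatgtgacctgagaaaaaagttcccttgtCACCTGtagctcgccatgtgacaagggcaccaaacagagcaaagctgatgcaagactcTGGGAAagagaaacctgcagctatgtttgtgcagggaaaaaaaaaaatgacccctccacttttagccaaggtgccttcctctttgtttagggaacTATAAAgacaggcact
The start used for Rbpjl is that of its GENCODE vM21 transcript, 113 bases inside the span RefSeq gives the gene. Both marked boxes therefore lie before that transcript but within the wider span. The start used for Pnlip is also a GENCODE vM21 transcript start. Those of Cel, Cela1 and Prss2 match the RefSeq span but no transcript start of the GENCODE vM21 basic set. The same holds for several other promoters counted above. Distances to these starts are therefore less certain.
Cel holds 4 copies of CACCTG and 1 of TTCCCA, Rbpjl 1 of each, Cela1 1 CACCTG, Pnlip 1 TTCCCA and Prss2 1 of each. TATAAA begins 27 bases before the start in Cela1, 30 in Pnlip and 16 in Prss2, and is not among the letters of Cel and Rbpjl in this window.

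Amylases digest starch. The pancreatic amylase gene Amy2b (chr3:113147656-113156727) stood at 1209 and 1031 CPM in normal pancreas, 0.347 and 0.321 in H7 tumours and 0.155 and 0.0819 in UNKC tumours. The groups did not overlap, and the log2 fold change was -11.70 ± 0.333 (SE, adjusted p = 9.98e-05) in H7 tumours and -13.17 ± 0.354 (SE, adjusted p = 0.000101) in UNKC tumours. Amy2a1, a second pancreatic amylase, stood at 22.7 and 35.8 CPM in normal pancreas, 0 and 0.0642 in H7 tumours and 0 and 0 in UNKC tumours. With 5 reads over both H7 libraries it was 856-fold lower there (95% counting interval 233 to 3554), and with no read in UNKC tumours at least 853-fold lower. Amy1, the salivary-type amylase that is also expressed in liver, fell least of the 3, from 8.33 and 11 CPM in normal pancreas to 0.319 and 0.577 and 0.144 and 0.761 in H7 and UNKC tumours. Its log2 fold change was -4.41 ± 0.858 (SE, adjusted p = 0.00685) in H7 tumours and -4.41 ± 0.853 (SE, adjusted p = 0.00712) in UNKC tumours. Without H7 replicate 1 the first became -3.99 (adjusted p = 0.054). The amylase genes lie together on chromosome 3 and are near-identical in sequence. How reads with several matches were counted is not given in the sources used here, so the split between these genes and their total are uncertain. Amy2a5 and the further amylase genes Amy2a2 and Amy2a3 had no read in any library, and Amy2a4 had 6, in normal replicate 2 only.

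All 6 genes for lipases and colipase fell in both tumours. Pnlip, pancreatic triglyceride lipase, held the most reads of all members in normal replicate 1 and stood at 3540.4 and 2650.1 CPM in normal pancreas, 1.32 and 1.44 in H7 tumours and 0.476 and 0.375 in UNKC tumours. This was a change of -11.13 ± 0.311 (SE, adjusted p = 9.98e-05) in H7 tumours, 2246-fold, and of -12.82 ± 0.331 (SE, adjusted p = 0.000101) in UNKC tumours, 7268-fold. Cel, the lipase whose promoter is shown above, went from 1201 and 1222 CPM to 2.56 and 2.53 in H7 tumours and 2.38 and 0.457 in UNKC tumours. Its fold changes were -8.89 ± 0.865 (SE, adjusted p = 0.000556) and -9.73 ± 0.895 (SE, adjusted p = 0.000489).

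Clps, the colipase that anchors PNLIP to fat droplets, stood at 278 and 274 CPM in normal pancreas, 1.36 and 1.91 in H7 tumours and 0.354 and 0.0937 in UNKC tumours. It fell less in H7 tumours than Pnlip did, with -7.39 against -11.13, and the difference between the 2 genes was not tested. The lipase-related genes Pnliprp1 and Pnliprp2 lie beside Pnlip on chromosome 19. Pnliprp1 stood at 4.99 and 7.2 CPM in H7 tumours, 3.69 and 0.983 in UNKC tumours and 573 and 709.8 in normal pancreas. Its log2 fold changes were -6.72 and -8.10. Pnliprp2 stood at 0.84 and 1.07, 0.31 and 0.234, and 352 and 290.5 CPM in the same order of groups, with -8.39 and -10.19. Pla2g1b, the secreted phospholipase A2, went from 68 and 39.6 CPM to 6 reads over both H7 libraries and 4 over both UNKC libraries, 1324-fold (95% counting interval 442 to 6512) and 2373-fold lower (642 to 19832).

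Carboxypeptidases trim amino acids from the end of peptides. Cpa1, carboxypeptidase A1, stood at 2007 and 1928 CPM in normal pancreas, 5.47 and 7.31 in H7 tumours and 1.75 and 0.445 in UNKC tumours. Its fold changes were -8.26 ± 0.725 (SE, adjusted p = 0.000402) and -10.80 ± 0.804 (SE, adjusted p = 0.000269). Cpb1, carboxypeptidase B1, stood at 1954 and 1774 CPM in normal pancreas, 2.45 and 3.82 in H7 tumours and 2.1 and 0.445 in UNKC tumours, and changed by -9.21 and -10.51.

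The 3 chymotrypsin genes fell by very different amounts in H7 tumours. Ctrb1, chymotrypsinogen B1, stood at 537 and 511 CPM in normal pancreas, 9.92 and 12.5 in H7 tumours and 3.21 and 0.293 in UNKC tumours. Its change was -5.55 ± 1.02 (SE, adjusted p = 0.00556) in H7 tumours and -8.22 ± 1.16 (SE, adjusted p = 0.00217) in UNKC tumours, and per length it had the highest level of the 38 genes in H7 tumours. Without H7 replicate 1 the first became -5.33 (adjusted p = 0.0626). Ctrl, the chymotrypsin-like protease, went from 650.2 and 704 CPM in normal pancreas to 0.782 and 0.616 in H7 tumours and 0.388 and 0.293 in UNKC tumours, with changes of -9.92 ± 0.254 (SE, adjusted p = 9.98e-05) and -10.95 ± 0.265 (SE, adjusted p = 0.000101). Ctrc, chymotrypsin C, which the annotation lists as a transcribed pseudogene, went from 882 and 604 reads to 0 and 8 in H7 tumours and 0 and 7 in UNKC tumours, and changed by -12.60 and -13.01.

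The 4 elastase genes fell in both tumours. Cela1, which had the highest level per length in normal pancreas (2112 ± 481 CPM per kilobase, SD, n = 2), stood at 1960.2 and 2713 CPM in normal pancreas, 2.63 and 3.04 in H7 tumours and 2.05 and 2.04 in UNKC tumours. Its changes were -9.68 ± 0.283 (SE, adjusted p = 9.98e-05) and -10.16 ± 0.288 (SE, adjusted p = 0.000101). Cela2a fell from 1531 and 1568 CPM to 2.27 and 3.4 and 1.31 and 0.234, with log2 fold changes of -9.09 and -10.96, and Cela3b from 428 and 502 CPM to 0.709 and 0.975 and 0.332 and 0.14, with -9.10 and -10.92. Cela3a, next to Cela3b on chromosome 4 and alike in sequence, had 53 and 30 reads in normal pancreas and none in the 4 tumour libraries, so it was at least 478-fold lower in H7 and at least 571-fold lower in UNKC tumours.

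Trypsinogens, the zymogens of trypsin, had the largest median difference between the tumours of any role, 3.34 on the log2 scale of H7 over UNKC, or 2.53 with the 2 genes without a read in UNKC tumours at their bounds, again the largest. Of the 5 genes, 2 passed the test. The 5 genes lie within chr6:41302272-41525079. Their median log2 fold change was -5.47 in H7 tumours and, with those 2 genes at their bounds, -7.64 in UNKC tumours. Prss2 (chr6:41521776-41525079), a major trypsinogen, stood at 385 and 340.1 CPM in normal pancreas, 7.43 and 8.89 in H7 tumours and 2.19 and 0.222 in UNKC tumours. The H7 libraries lay above both UNKC libraries and below normal pancreas, and the changes against normal pancreas were -5.47 ± 0.955 (SE, adjusted p = 0.00454) and -8.22 ± 1.09 (SE, adjusted p = 0.00172). Without H7 replicate 1 the first became -5.28 (adjusted p = 0.0553).

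Try5 fell least of the digestive enzymes in H7 tumours other than Amy1. It stood at 141 and 78.7 CPM in normal pancreas, 3.42 and 5.54 in H7 tumours and 1.17 and 0.375 in UNKC tumours, and changed by -4.61 ± 0.614 (SE, adjusted p = 0.00166) and -7.14 ± 0.696 (SE, adjusted p = 0.000606). Try4 (chr6:41302272-41305533), which lies beside it, stood at 389.6 and 211 CPM in normal pancreas, 0.927 and 1.17 in H7 tumours and 0.177 and 0.0234 in UNKC tumours. Its changes were -8.16 ± 0.683 (SE, adjusted p = 0.000356) and -11.50 ± 0.803 (SE, adjusted p = 0.000231).

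The other 2 trypsinogens were low in normal pancreas too. Try10 had 14 and 15 reads there, 0 and 6 in H7 tumours, which was 167-fold less (48.8 to 930.3 at 95% by counting), and none in UNKC tumours (at least 199-fold lower). Prss3 had 8 and 6 reads in normal pancreas and 10 and 4 in H7 tumours, a change of -5.06 ± 0.835 (SE, adjusted p = 0.00614), which became -4.84 (adjusted p = 0.0519) without normal replicate 1. It had none in UNKC tumours, at least 96.3-fold lower. These genes are near-identical copies, and reads may have been split among them.

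Rnase1, the pancreatic ribonuclease, fell from 978 and 694 CPM to 0.84 and 1.27 in H7 tumours and 0.576 and 0.304 in UNKC tumours, with log2 fold changes of -9.62 and -10.88. The 4 proteins of the zymogen granule also fell. Gp2, the main glycoprotein of the granule membrane, stood at 289 and 386 CPM in normal pancreas, 2.43 and 1.57 in H7 tumours and 0.864 and 0.258 in UNKC tumours, and changed by -7.40 ± 0.636 (SE, adjusted p = 0.00038) and -9.22 ± 0.691 (SE, adjusted p = 0.000272). Cuzd1, a granule membrane protein, went from 114 and 106 CPM to 0.333 and 0.282 in H7 tumours and 0.111 and 0 in UNKC tumours, with -8.48 and -10.87.

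Zg16, a granule lectin also made by intestinal goblet cells, had the widest gap between replicates. It stood at 467 and 488 CPM in normal pancreas, 0.434 and 0.642 in H7 tumours and 0.177 and 3.82 in UNKC tumours. UNKC replicate 2 was 21.5-fold above UNKC replicate 1. The changes against normal pancreas were -9.78 ± 1.51 (SE, adjusted p = 0.00284) and -7.90 ± 1.38 (SE, adjusted p = 0.00485). Sycn, syncollin, which lines the granule membrane, behaved likewise at 58.3 and 90.1 CPM in normal pancreas, 0.232 and 0.359 in H7 tumours and 0.0443 and 0.632 in UNKC tumours, a change of -7.95 ± 1.05 (SE, adjusted p = 0.00164) and -7.78 ± 1.04 (SE, adjusted p = 0.0018).

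Of the secretory pathway proteins, Pdia2, the pancreatic protein disulfide isomerase, stood at 580.3 and 716 CPM in normal pancreas, 0.29 and 0.205 in H7 tumours and 0.443 and 0.281 in UNKC tumours. Its changes, -11.35 ± 0.367 (SE, adjusted p = 0.000105) and -10.79 ± 0.356 (SE, adjusted p = 0.000101), were within the range of those of the enzymes. Erp27, an endoplasmic reticulum protein, fell from 46.3 and 62.5 CPM to 0.347 and 0.321 and 0.133 and 0.0468, with -7.34 and -9.19. Tmed11, a cargo receptor of the p24 family, had 38 and 66 reads in normal pancreas and none in any tumour library, at least 598-fold lower in H7 and at least 715-fold lower in UNKC tumours. Tmed6, of the same family, had 14 and 20 reads in normal pancreas, 4 and 4 in H7 tumours and 8 and 0 in UNKC tumours, and changed by -7.14 and -7.39.

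Serpini2, an acinar protease inhibitor of the serpin family, stood at 177 and 114 CPM in normal pancreas, 0.101 and 0.154 in H7 tumours and 0.111 and 0.0234 in UNKC tumours, and changed by -10.11 and -11.01. Dpep1, a renal-type membrane dipeptidase that is also made outside acinar cells, was low in normal pancreas and stood at 1.85 and 2.86 CPM in normal pancreas, 0.0869 and 0.513 in H7 tumours and 1.66 and 1.77 in UNKC tumours. The UNKC libraries lay just below the normal ones, and the H7 libraries lay lower. Neither change passed the test, at -2.94 ± 1.09 (SE, adjusted p = 0.0661) in H7 and -0.45 ± 0.939 (SE, adjusted p = 0.708) in UNKC tumours. The first became -4.69 (adjusted p = 0.0126) without H7 replicate 2, and DESeq2 gave -3.12 (adjusted p = 0.00451). Normal pancreas had 4 and 6 reads of it. With scaling by total counts the sign turned in both tumours, to 0.36 in H7 and 2.90 in UNKC tumours.

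The 4 transcription factors fell by unequal amounts. Rbpjl, whose promoter carries the paired letters, stood at 677 and 752 CPM in normal pancreas, 0.333 and 0.539 in H7 tumours and 0.199 and 0.105 in UNKC tumours, a change of -10.66 ± 0.406 (SE, adjusted p = 0.000105) in H7 and -12.17 ± 0.433 (SE, adjusted p = 0.000104) in UNKC tumours. Per length, its level in normal pancreas was 291 CPM per kilobase, against 25.7 for Nr5a2, 14.3 for Bhlha15 and 1.56 for Ptf1a.

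Bhlha15, which encodes MIST1 and scales up the secretory apparatus, overlapped in level between the tumours. It stood at 59.7 and 40.5 CPM in normal pancreas, 0.319 and 0.128 in H7 tumours and 0.255 and 0.187 in UNKC tumours, a change of -7.81 ± 0.491 (SE, adjusted p = 0.000178) and -7.81 ± 0.487 (SE, adjusted p = 0.000182). Nr5a2, a nuclear receptor that maintains acinar identity, stood at 91.2 and 107 CPM in normal pancreas, 0.695 and 0.834 in H7 tumours and 1.86 and 0.925 in UNKC tumours. Its changes were -7.01 ± 0.412 (SE, adjusted p = 0.000158) and -6.15 ± 0.393 (SE, adjusted p = 0.000185).

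Ptf1a, the founding factor of the lineage, was at the edge of detection everywhere, with 4 and 6 reads in normal pancreas, 10 and 6 in H7 tumours and 6 and 0 in UNKC tumours. In CPM this was 1.85 and 2.86 in normal pancreas, 0.145 and 0.077 in H7 tumours and 0.0664 and 0 in UNKC tumours. The change was -4.39 ± 1.14 (SE, adjusted p = 0.0192) in H7 tumours and -6.02 ± 1.28 (SE, adjusted p = 0.00949) in UNKC tumours, where the fold was 68.8 (95% counting interval 13.4 to 443). The call in H7 tumours was lost without any 1 of the 4 libraries compared (adjusted p = 0.0567 without H7 replicate 1, 0.0727 without H7 replicate 2, 0.0668 without normal replicate 1 and 0.135 without normal replicate 2). The call in UNKC tumours was lost without normal replicate 2 (adjusted p = 0.0786).

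The acinar RNA found in the tumours was not a scaled copy of that in normal pancreas. In normal pancreas Pnlip (16.7% and 12.9% of the reads of the 38 genes), Cela1 (9.23% and 13.2%) and Cpa1 (9.45% and 9.40%) led. In H7 tumours Ctrb1 (18.2% and 17.9%) and Prss2 (13.6% and 12.8%) led. Prss2, Ctrb1 and Try5 together went from 5.01% and 4.53% of the acinar reads in normal pancreas to 38.03% and 38.7% in H7 tumours. The 2 H7 libraries were alike in this and lay apart from the normal ones. The 3 genes held 22.8% in UNKC replicate 1 and 5.59% in UNKC replicate 2, so only the first of these lay apart from normal pancreas. The 3 genes were picked after their values were seen. Pnlip, Cela1 and Amy2b went the other way, from 31.6% and 31.2% in normal pancreas to 7.88% and 6.90% in H7 tumours and 9.30% and 15.7% in UNKC tumours.

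On the scale of level per length, Ctrb1 was 11th of the 38 in normal pancreas and 1st in H7 tumours, at 591 ± 21.0 and 12.6 ± 2.04 CPM per kilobase (SD, n = 2). Prss2 was 14th and 2nd, at 439 ± 38.8 and 9.88 ± 1.25, and Try5 was 22nd and 3rd, at 137 ± 54.7 and 5.59 ± 1.88. Pnlip went from 2nd to 15th and Amy2b from 7th to 22nd. In normal pancreas the neighbours at the top, Cela1 (2112 ± 481) and Pnlip (2082 ± 423), did not differ beyond their spread, and neither did Cpb1 (1248 ± 85.3) and Cpa1 (1247 ± 35.4). As a description over the 38 genes, Spearman's rho between libraries was 0.986 within normal pancreas, 0.960 within H7 tumours and 0.739 within UNKC tumours. Between H7 tumours and normal pancreas it was 0.668 to 0.700. UNKC replicate 1 stood at 0.870 and 0.889 with the H7 libraries, above its value with UNKC replicate 2, and at 0.622 and 0.658 with the normal ones. UNKC replicate 2 stood at 0.589 and 0.686 with the H7 libraries and at 0.478 and 0.514 with the normal ones. All these values share the same genes and their lengths. Gene length correlated with the log2 fold change of the members at a rho of 0.08 in H7 and 0.22 in UNKC tumours. Over all tested genes with a known length, rho was -0.21 and -0.20. For H7 against UNKC tumours it was -0.27 for the members and -0.05 over all genes.

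**Figure D2:**
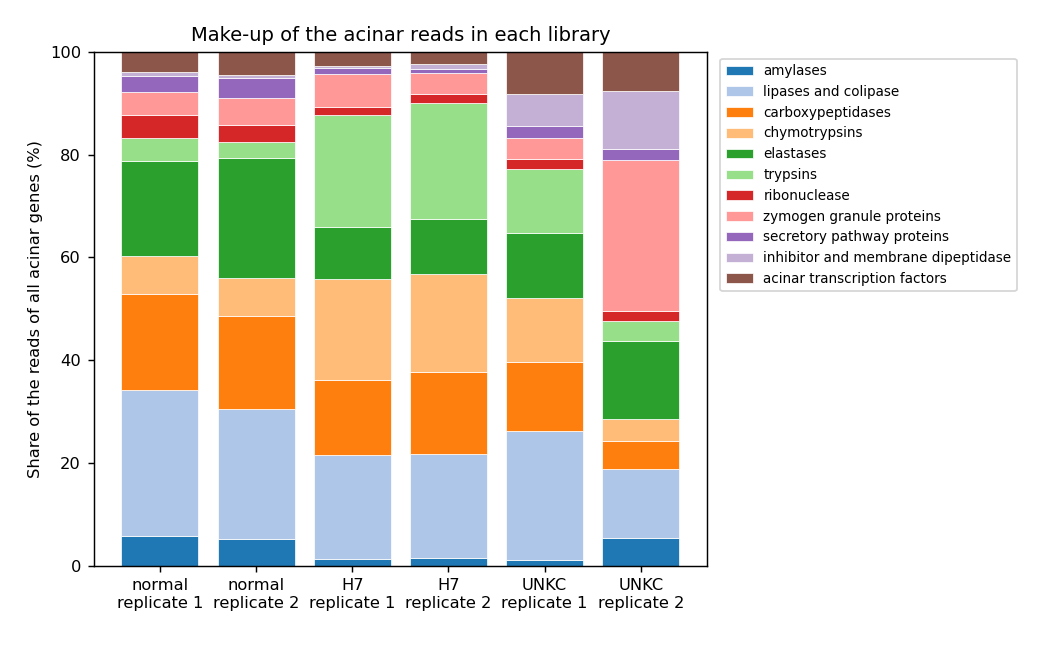
Make-up of the reads of the 38 acinar genes in each library, by role, as a percentage of the acinar reads of that library (stacked to 100%). Trypsins (4.36% and 3.12% in normal pancreas) take 21.8% and 22.6% in H7 tumours, and zymogen granule proteins take 29.6% in UNKC replicate 2.

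The 2 UNKC libraries held unlike acinar RNA. Of the 28 genes with a read in both, 24 were higher in replicate 1, 15 of them over 2-fold and 5 over 5-fold: Ctrb1 (10.97-fold), Prss2 (9.86), Try4 (7.57), Cela2a (5.58) and Cel (5.21). In the opposite direction, 3 genes were over 2-fold higher in replicate 2: Zg16 (21.5-fold), Sycn (14.3) and Amy1 (5.29). Zg16 alone held 24.0% of the acinar reads of replicate 2. Cela1, at 2.05 and 2.04 CPM, was level between them. These genes were chosen after their values were seen.

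Markers of other tissues differed between the same 2 libraries. Summed intestinal markers stood at 12.3 CPM in replicate 1 and 28.9 in replicate 2, against 12.9 to 17.6 in normal pancreas and 2.55 to 5.65 in H7 tumours. Of the 7 markers, 2 had no read in replicate 1 and 3 none in replicate 2, and Fabp2 and Alpi were at 0 in all 6 libraries. Among them Fcgbp, a goblet cell mucus protein, stood at 1.71 and 17.2 CPM and Muc2, the goblet cell mucin, at 0.177 and 3.09. These 2 were chosen after their values were seen, and the other 5 summed to 10.5 and 8.57 CPM, lower in replicate 2. Klk1, a kallikrein of pancreas and salivary gland, stood at 0.199 and 2.54. The 5 adipocyte markers summed to 0.720 and 9.46 CPM, and the 5 skeletal muscle markers to 0.908 and 1696. The part of other tissue in these gaps was not tested. In H7 tumours the muscle sum was 1.25 and 459 CPM, while of 33 acinar genes with a read in both libraries 21 were higher in replicate 2, 1 of them over 2-fold, and 12 in replicate 1, 3 of them over 2-fold.

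Between the tumours, 11 of the 38 acinar genes were higher in H7 than in UNKC, beside 7.06% of all tested genes, and none was lower, beside 11.1%. The median log2 fold change of H7 over UNKC was 1.43 for the 38, or 1.34 over the 36 with a read in either tumour and with those without a read in UNKC tumours at their bounds, and -0.02 for all genes. The 11 were the enzymes Amy2b, Pnlip, Pnliprp2, Cpa1, Ctrl, Cela3b, Try4 and Try5, the colipase Clps, the endoplasmic reticulum protein Erp27 and the factor Rbpjl. Try4 differed most, at 3.34 ± 0.665 (SE, adjusted p = 0.0216), followed by Clps at 2.85 ± 0.504 (SE, adjusted p = 0.0145) and Cpa1 at 2.54 ± 0.576 (SE, adjusted p = 0.0322). Ctrl differed least, at 1.03 ± 0.203 (SE, adjusted p = 0.0206). Both H7 libraries lay above both UNKC libraries for 23 of the 38 (60.5%), beside 34.5% of all genes, and below them for 2 (5.26%), beside 35.9%.

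Genes with larger means but unequal UNKC replicates did not pass: Prss2 at 2.75 ± 0.861 (SE, adjusted p = 0.0808) and Ctrb1 at 2.67 ± 0.91 (SE, adjusted p = 0.101). Prss2, but not Ctrb1, passed with DESeq2 (2.79, DESeq2 adjusted p = 0.0425) and with the replicate number as a block (3.05, adjusted p = 0.0435). Without UNKC replicate 1 the differences were 5.19 for Prss2 and 5.25 for Ctrb1, and without UNKC replicate 2 they were 1.89 and 1.80. Leaning the other way were Dpep1, at -2.48 ± 0.677 (SE, adjusted p = 0.0552), Zg16, at -1.88 ± 1.14 (SE, adjusted p = 0.332), and Nr5a2, at -0.86 ± 0.339 (SE, adjusted p = 0.143). At an unadjusted p under 0.05, H7 tumours were higher for 18 genes and lower for 2, and DESeq2 called 19 and 1. The count rested on single libraries. It was 1 without H7 replicate 1 (Pnliprp2), 2 without H7 replicate 2 (Pnlip and Pnliprp2), 18 without UNKC replicate 1 and 8 without UNKC replicate 2, each with 1 library left to stand for its group. Zg16 turned from -1.88 to 1.59 (adjusted p = 0.0439) without UNKC replicate 2, and was -2.81 (adjusted p = 0.00908) without UNKC replicate 1. Islets are another tissue of the host pancreas. Their markers summed to 11.1 and 65.2 CPM in H7 tumours, 47.0 and 14.4 in UNKC tumours and 616 and 277 in normal pancreas. These sums overlapped between the tumours and differed widely between replicates. The 9 ductal and epithelial markers summed to 416 and 391 CPM in H7 tumours and 1077 and 876 in UNKC tumours, against 236 and 172 in normal pancreas. The part of islet and epithelial cells in the difference between the tumours was not tested. The other marker lists were counted against normal pancreas, where 21.9% of all genes were lower and 29.6% higher in H7 tumours, and 19.3% and 29.1% in UNKC tumours. Adipocyte markers moved with the acinar genes: 5 of 5 were lower in H7 and 4 of 5 in UNKC tumours, and their sums were 61.5 and 155 CPM in normal pancreas, 0.0145 and 0.180 in H7 tumours and, as above, 0.720 and 9.46 in UNKC tumours. B and plasma cell markers were lower for 5 of 5 tested genes in H7 and 4 of 5 in UNKC tumours, and islet markers for 5 of 8 in both. Macrophage markers were higher for 4 of 4 in both. Fibroblast markers were higher for 4 of 5 and 3 of 5, and gastric markers for 3 of 4 and 0 of 4. The part of these tissues in the fall of the acinar genes was not tested. None of the 5 salivary gland markers reached the filter, and 4 or 5 of them had no read in each library.

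**Figure D3:**
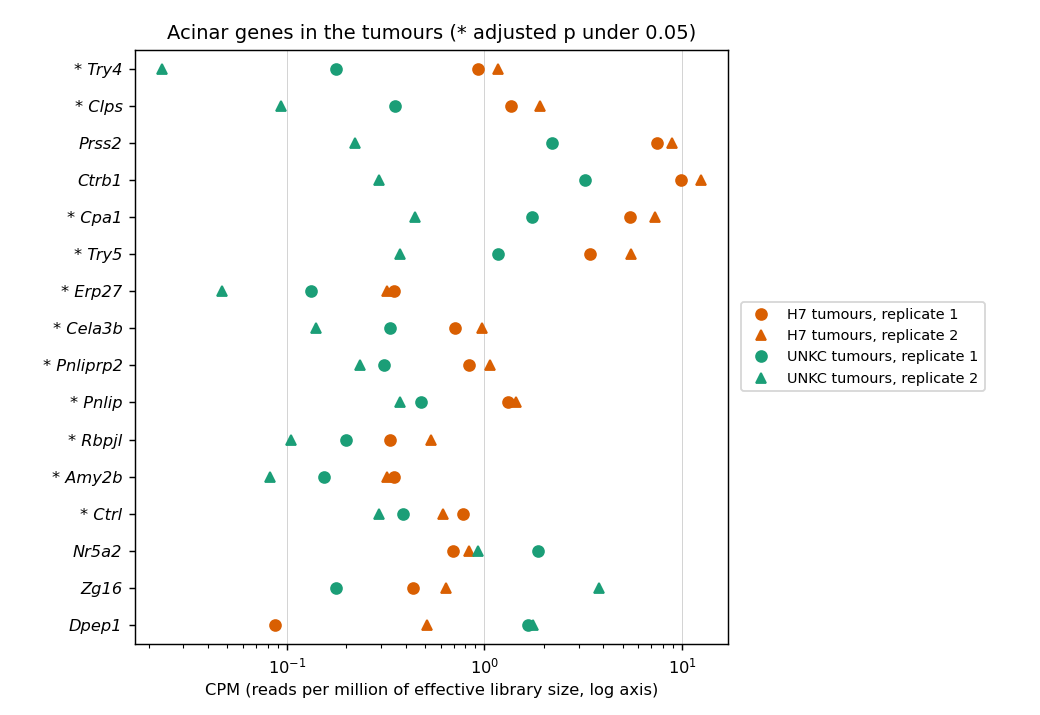
Level in the tumour libraries, in CPM on a log axis, of the 11 acinar genes that differed between H7 and UNKC tumours (asterisks) and of 5 that did not pass the test. For the 11, both H7 libraries lie to the right of both UNKC libraries, whereas Zg16 is split by UNKC replicate 2 at 3.82 CPM.

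The wider secretory machinery was counted from 6 other lists, chosen for their role. Each count is set against all tested genes, of which 21.9% were lower and 29.6% higher in H7 tumours, and 19.3% and 29.1% in UNKC tumours. Of 5 other digestive products tested, 4 were lower and 0 higher in each tumour, with a median of -8.99 in H7 and -7.93 in UNKC tumours. Among them the kallikrein Klk1 stood at 333 ± 119 CPM in normal pancreas (SD, n = 2) and 0.559 ± 0.192 in H7 tumours. Of 6 receptors for secretagogues, 4 were lower and 1 higher in H7 and 5 were lower and 0 higher in UNKC tumours. The cholecystokinin receptor Cckar stood at 55.3 ± 8.11 CPM in normal pancreas, 0.912 ± 0.144 in H7 tumours and 0.233 ± 0.329 in UNKC tumours. The muscarinic receptor Chrm3 fell by 6.83 in H7 tumours. The bombesin receptor Grpr went in opposite directions, at 7.98 ± 0.493 CPM in normal pancreas, 20.2 ± 5.95 in H7 tumours (1.34 ± 0.275, SE, adjusted p = 0.00687) and 0.0228 ± 0.000896 in UNKC tumours (-8.32 ± 0.417, adjusted p = 0.000136).

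Of 7 genes for acinar metabolism and ion transport, 6 were lower and 0 higher in H7 tumours, and 5 lower and 1 higher in UNKC tumours, with medians of -3.21 and -2.96. The glycine methyltransferase Gnmt and the zinc transporter Slc39a5 changed by -8.40 and -9.19 in H7 tumours and by -9.12 and -8.63 in UNKC tumours. The bicarbonate cotransporter Slc4a4, which duct cells also use, was higher in UNKC tumours at 99.2 ± 4.95 CPM, against 12.9 ± 0.0553 in normal pancreas and 3.90 ± 1.38 in H7 tumours. Of 13 partner and other lineage factors, 8 were lower and 3 higher in H7 tumours and 6 lower and 5 higher in UNKC tumours. RBPJ, which RBPJL replaces in the complex of mature acinar cells, did not fall with it. Rbpj stood at 8.54 ± 7.49 CPM in normal pancreas, 42.7 ± 6.50 in H7 tumours (2.33 ± 0.513, SE, adjusted p = 0.0111) and 31.4 ± 0.360 in UNKC tumours (1.88 ± 0.511, adjusted p = 0.025). The Notch target Hes1 rose by 3.43 ± 0.468 (SE) in UNKC tumours, from 3.72 ± 3.24 CPM in normal pancreas to 40.4 ± 1.24. Pdx1, a factor of the early pancreas, rose by 1.67 ± 0.230 (SE) in H7 tumours, from 4.22 ± 0.574 CPM to 13.4 ± 0.636. Both stood low in the shallow normal libraries. Among the falls were Creb3l1 in H7 tumours (-4.17), and Gata4 (-2.72) and Myc (-2.14) in UNKC tumours.

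Genes of the general secretory machinery changed in both directions. Of 14 genes for granule trafficking and exocytosis, 5 were lower and 4 higher in H7 tumours and 6 lower and 4 higher in UNKC tumours, with medians of -0.38 and -0.18, and the share higher was near that of all genes. Stxbp2, which guides membrane fusion, stood at 130.01 ± 10.50 CPM in normal pancreas, 24.8 ± 0.385 in H7 tumours and 24.3 ± 2.54 in UNKC tumours. Vamp8, the SNARE of zymogen granules, stood at 11.9 ± 6.06, 33.6 ± 3.60 and 31.4 ± 3.27. Of 20 genes for entry into the endoplasmic reticulum, 3 were lower and 11 higher in each tumour, with medians of 1.22 and 1.09. Among them Spcs1, a signal peptidase subunit, rose by 2.12 and 2.09, and Srp68, of the signal recognition particle, changed by -1.32 and -1.46. With scaling by total counts, which moved the median of all genes to 3.61 and 3.77, the directions of several lists changed. For trafficking genes 0 were lower and 13 and 14 higher in H7 and UNKC tumours, and lineage factors were 2 lower and 9 higher, and 0 and 12. Metabolic genes were then 2 lower and 2 higher in H7 tumours and 3 and 3 in UNKC tumours. Receptors were 1 lower and 1 higher in H7 tumours (median -0.26, from -3.53) and 3 and 0 in UNKC tumours (-1.94, from -5.31). All 20 entry genes were higher in both, where 11 had been higher and 3 lower in each. Other digestive products stayed low (3 and 4 lower, 0 higher).

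**Figure D4:**
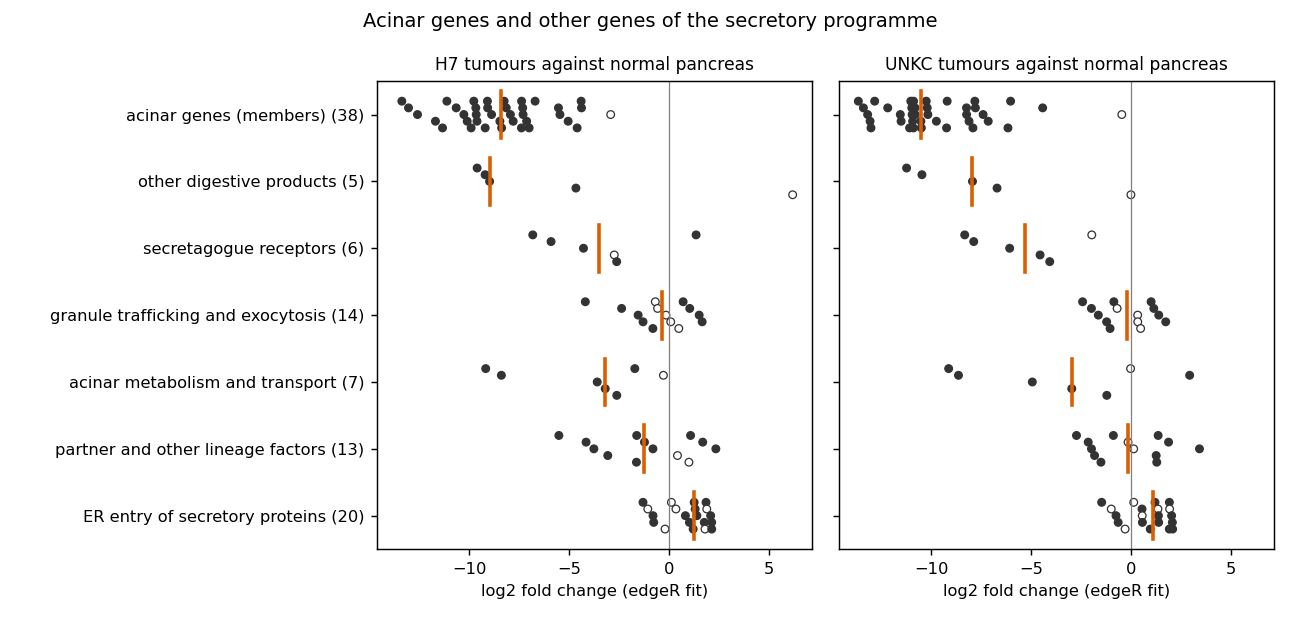
Log2 fold change of the 38 acinar genes and of the tested genes of 6 other lists in each tumour against normal pancreas, with filled points for an adjusted p under 0.05 and an orange bar at the median of each list. The acinar genes centre on -8.44 and -10.50 and genes for entry into the endoplasmic reticulum on 1.22 and 1.09. Fitted values of genes with no read in 1 group depend on the prior count, among them the far-right open point, Gm2663, which had no read in normal pancreas.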

How the data were processed

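Per the submitters' processing notes, reads were aligned with STAR to mm10, counted per gene with featureCounts and tested with DESeq2 1.18.1. The deposited per-sample counts are whole numbers for 27179 gene IDs and count each mate of a pair, since they are 1.98 to 2.00 times those in the comparison tables (medians per library). The authors' comparison tables hold counts, TPM computed from gene length in bases, log2 fold changes, p-values and adjusted p-values. Strand and the handling of reads with several matches are not given in the sources used here. Names came from those tables for 16286 IDs and from RefSeq for 9355, and 1538 had none.

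Genes passing filterByExpr (16306, a raw CPM of 0.287) were scaled with TMM factors (2.07 to 2.23 in tumours, 0.179 and 0.256 in normal pancreas) and tested with edgeR 4.0.16 in R 4.3.3, by the quasi-likelihood model (legacy = FALSE) on all 6 libraries with 3 residual degrees of freedom and a threshold of 0.05. limma 3.58.1 and DESeq2 1.42.0 served alternatives, and Python 3.11.15, pandas 2.3.3, SciPy 1.17.1 and matplotlib 3.10.9 tables and figures. The SE of a log2 fold change is its size over the square root of its F statistic. Replicates correlated across genes, which are not independent, at r = 0.967 (H7), 0.949 (UNKC) and 0.801 (normal). A fold against a group with no read is a lower bound from 3 read pairs (6 reads) over the group. With 1 to 3 read pairs the fold has an exact binomial interval at 95%. Both cover counting error only.

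All 38 members are named. From each other list, up to 2 falls and 2 rises that reach 5 CPM in the higher of the 2 groups could be named, and some that met this rule are not reported here. Marker lists of other tissues were summed or counted. The members, lists and motifs were chosen with earlier results of these data known. Alternatives were other scalings, no filter, a fold threshold, a replicate block, halved counts, the authors' counts, DESeq2, each library left out, and, added after seeing the data, removal of the trend on gene length (loess, span 0.5). The fit was also run on simulated data, with falls placed in the H7 libraries only and smaller than those of most members. That run does not cover falls as large as theirs, and its outcome is not reported here.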

Additional observations from a re-analysis of the deposited data

Results flagged for a closer look

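The fall from normal pancreas differed between the tumours, by edgeR's quasi-likelihood test of H7 against UNKC tumours (n = 2 each, adjusted over all tested genes), for 11 acinar genes, all higher in both H7 libraries than in both UNKC libraries. On the log2 scale the difference was 3.34 for Try4, 2.85 for Clps, 2.54 for Cpa1, 2.53 for Try5, 1.85 for Erp27, 1.82 for Cela3b, 1.80 for Pnliprp2, 1.69 for Pnlip, 1.503 for Rbpjl, 1.47 for Amy2b and 1.03 for Ctrl. No group had enough samples to test for a sample far from the others.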

How the results depend on the processing

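Of the 38 acinar genes, 31 to 38 were lower in H7 and 35 to 37 in UNKC tumours than in normal pancreas under every alternative run, some of which tested only 35 to 37 of them. Leaving out 1 library gave 33 to 37 and 36 to 37. The number higher was 0 throughout, with 1 exception in UNKC tumours, where scaling by total counts gave 1 (Dpep1, 2.90, reversed from -0.45). The same scaling reversed Dpep1 in H7 tumours, to 0.36. Between the tumours the 11 genes higher in H7 became 7 with total counts, 3 against a fold of 2, 5 with only the 4 libraries compared (28 of the genes tested) and 19 with DESeq2, and 1 to 18 when 1 library was left out. The 0 lower in H7 became 1 (Dpep1) with upper-quartile factors, with halved counts and with DESeq2, and 0 to 1 when 1 library was left out. For Zg16 leaving out 1 UNKC library gave -2.81 (without replicate 1) or 1.59, reversed (without replicate 2). The acinar share of all reads (0.380% and 0.524% in normal pancreas, 0.0113% and 0.0149% in H7, 0.00643% and 0.00351% in UNKC tumours) became, without ribosomal RNA and other abundant genes in the total, 5.88% and 6.15%, 0.0158% and 0.0199%, and 0.00818% and 0.00440%. The cause of these shifts was not tested. Precision was limited by the 780777 and 699044 reads left in the normal libraries without those genes, and by 2 samples a group.

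Deviations of same-numbered samples correlated at 0.526 between H7 and UNKC tumours, and at -0.0122 (H7 with normal) and -0.0232 (UNKC with normal). The labels do not say whether replicate numbers pair the samples, and the test used above did not pair them. What same-numbered tumour samples share was not tested. With the replicate number as a block, 37 genes stayed lower in each tumour than in normal pancreas (37 and 37), 13 were higher in H7 than in UNKC tumours and 1 was lower (Dpep1).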
